A study of Mus musculus with 48 samples.

Results

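The 9 genes described here encode enzymes that make, use and dispose of methyl groups and sulfur carried by methionine. They are Mat1a, Mat2a, Gnmt, Bhmt, Ahcy, Cbs, Cth, Nnmt and Cdo1, and they were taken by Ensembl ID out of 55416 genes counted in each liver. All 9 passed the filter on low counts.

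In the liver, methionine adenosyltransferase turns methionine into S-adenosylmethionine, the methyl donor for most methylation reactions. Transfer of the methyl group leaves S-adenosylhomocysteine, which is split to homocysteine. Homocysteine is either methylated back to methionine or passed through transsulfuration to cysteine, the precursor of glutathione and taurine. Adult hepatocytes are known for high MAT1A, whereas MAT2A is the form of most other tissues and of dividing or dedifferentiated liver cells.

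RNA was sequenced from 48 livers of mice on a C57BL/6 background (C57BL/6J for the knock-in line). The mice had eaten a western diet with 0.2% cholesterol for 8 weeks, from about 8 to 16 weeks of age. The knock-in mice carried the W441R allele of the nuclear receptor LXRα (gene Nr1h3), a dominant-negative change (DN) that was made by genome editing and traced to 1 founder. The second line was a whole-body LXRα knockout (KO) that had been backcrossed. Each line gave 8 wild-type (WT), 8 heterozygous (HET) and 8 homozygous (HOM) littermates from heterozygous matings, which are written as DN:WT, DN:HET, DN:HOM, KO:WT, KO:HET and KO:HOM. The lines were kept at different institutions and the knock-in mice were males, so a difference between the DN and KO groups cannot be told apart from a difference between the mouse studies. Each library came from a separate mouse. The comparisons ask how a receptor that represses its targets and a missing receptor each alter these genes, and whether the 2 effects differ.

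Libraries held 5332897 to 16961379 stranded reads on genes, with 2 livers below 10000000, and the lowest count of any of the 9 genes in any liver was 430 (Nnmt). Nr1h3 itself averaged 93.6 ± 8.82 CPM (counts per 1000000, mean ± SD, n = 8) in KO:WT, 59.2 ± 5.63 in KO:HET and 27.002 ± 1.99 in KO:HOM, in the order of the labels. A pair of libraries went against their labels on the genes described here. The liver labelled DN:WT animal 10 lay inside the range of the other DN:HOM livers for 6 of the 9 genes and inside that of the other DN:WT livers for 2, while the liver labelled DN:HOM animal 12 lay inside the DN:WT range for 8 and the DN:HOM range for 2. Neither was found among the 22 of 24 knock-in livers whose bile acid gene values could be matched to the source data of the study. For that absence, and because earlier results of these data gave both libraries the profile of the other genotype, the main values below rest on 46 livers (7 in DN:WT and in DN:HOM, 8 in each other group). The values of the 9 genes in these livers are a description and not a separate ground. Leaving the livers out itself widens the separation of DN:HOM from DN:WT. The comparisons of the 9 genes are therefore also given for all 48 livers as labelled.

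Counts were compared by the quasi-likelihood test of edgeR, p-values were adjusted over all genes by the Benjamini-Hochberg method, a gene was called at an adjusted p below 0.05, and fold changes are on the log2 scale ± SE. In DN:HOM against DN:WT, 8 of the 9 genes changed, 7 lower and 1 higher. Across all 15711 genes tested, 59.1% were called in this comparison, 30% lower and 29.1% higher. The median log2 fold change of the 9 genes was -0.81, against -0.01 over all tested genes. All 48 livers gave 8 calls as well, 7 lower and 1 higher, beside 48% of all genes. In bulk liver RNA, fewer cells of a type and less RNA per cell cannot be told apart.

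The promoters of 2 genes that fell together are shown because their windows lie almost wholly before the transcribed part of the gene. A RefSeq table (assembly GRCm38.p6) held the bases before the start site for 5 of the 9 genes, namely Ahcy, Mat2a, Bhmt, Cbs and Gnmt, and not for Mat1a, Cth, Nnmt or Cdo1. The positions below come from the single exact match of each sequence to GRCm39, on the minus strand, and the last bases, which GENCODE places in exon, were left off (5 for Ahcy and 16 for Gnmt). Capitals mark the nuclear receptor half-site letters AGGTCA and the letters CCAAT, on either strand.
Ahcy promoter, chr2:154916423-154916667: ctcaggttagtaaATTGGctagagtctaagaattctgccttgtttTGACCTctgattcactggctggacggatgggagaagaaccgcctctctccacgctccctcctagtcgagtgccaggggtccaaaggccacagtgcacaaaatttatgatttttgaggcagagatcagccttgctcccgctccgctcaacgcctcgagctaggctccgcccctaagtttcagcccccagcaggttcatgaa
Gnmt promoter, chr17:47040108-47040341: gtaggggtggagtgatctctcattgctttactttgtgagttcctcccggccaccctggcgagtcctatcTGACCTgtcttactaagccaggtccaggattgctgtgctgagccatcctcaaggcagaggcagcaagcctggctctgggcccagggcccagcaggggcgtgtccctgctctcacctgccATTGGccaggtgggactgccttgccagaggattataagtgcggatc

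The letters AGGTCA on either strand were searched in the 250 bases before the RefSeq start. They occurred 3 times before Bhmt (at 234, 72 and 47 bases), once before Ahcy (205 bases) and once before Gnmt (181 bases). They did not occur before Mat2a or Cbs. Of 32851 RefSeq windows of the same length, 14% held that motif. The letters CCAAT were present before all 5 genes, at 2 places before Cbs, and in 33.8% of all windows. The pair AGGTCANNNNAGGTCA, which is the spacing known as DR4 that LXR heterodimers prefer and holds the shorter motif at both ends, was present before none of the 5 and in 0.0152% of all windows. These matches are a description of letters only. GENCODE starts Cbs, Bhmt and Mat2a further upstream, so that 250, 203 and 145 of the 250 bases of their windows lie inside the gene. Those 3 windows are not printed, and the matches in the Cbs window, the Bhmt matches at 72, 56 and 47 bases and the Mat2a match at 89 bases are not upstream of the annotated genes.

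Methionine adenosyltransferase showed opposite changes of its catalytic genes in the homozygous knock-in. Mat1a (ENSMUSG00000037798, GRCm39 chr14:40826926-40846384, plus strand), the hepatocyte form, had a lowest, median and highest level of 1949, 2220 and 2808 CPM in DN:WT and of 650.9, 801.1 and 1385 CPM in DN:HOM. Mat2a (ENSMUSG00000053907, chr6:72409779-72416684, minus strand), the extrahepatic form, stood at 71.4, 75.2 and 85.6 CPM in DN:WT and at 98.6, 102.9 and 118.6 CPM in DN:HOM. Every DN:HOM liver was below every DN:WT liver for Mat1a and above every one for Mat2a. The log2 fold change was -1.35 ± 0.15 for Mat1a (2.55-fold lower, adjusted p = 1.16e-10) and 0.46 ± 0.08 for Mat2a (1.38-fold higher, adjusted p = 1.80e-06). In all 48 livers they were -0.95 (adjusted p = 0.000303) and 0.36 (adjusted p = 0.000740), and the ranges then overlapped. Mat2b, which encodes the regulatory partner of the MAT2A enzyme, had a log2 fold change of 0.10 (adjusted p = 0.308).

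**Figure D1:**
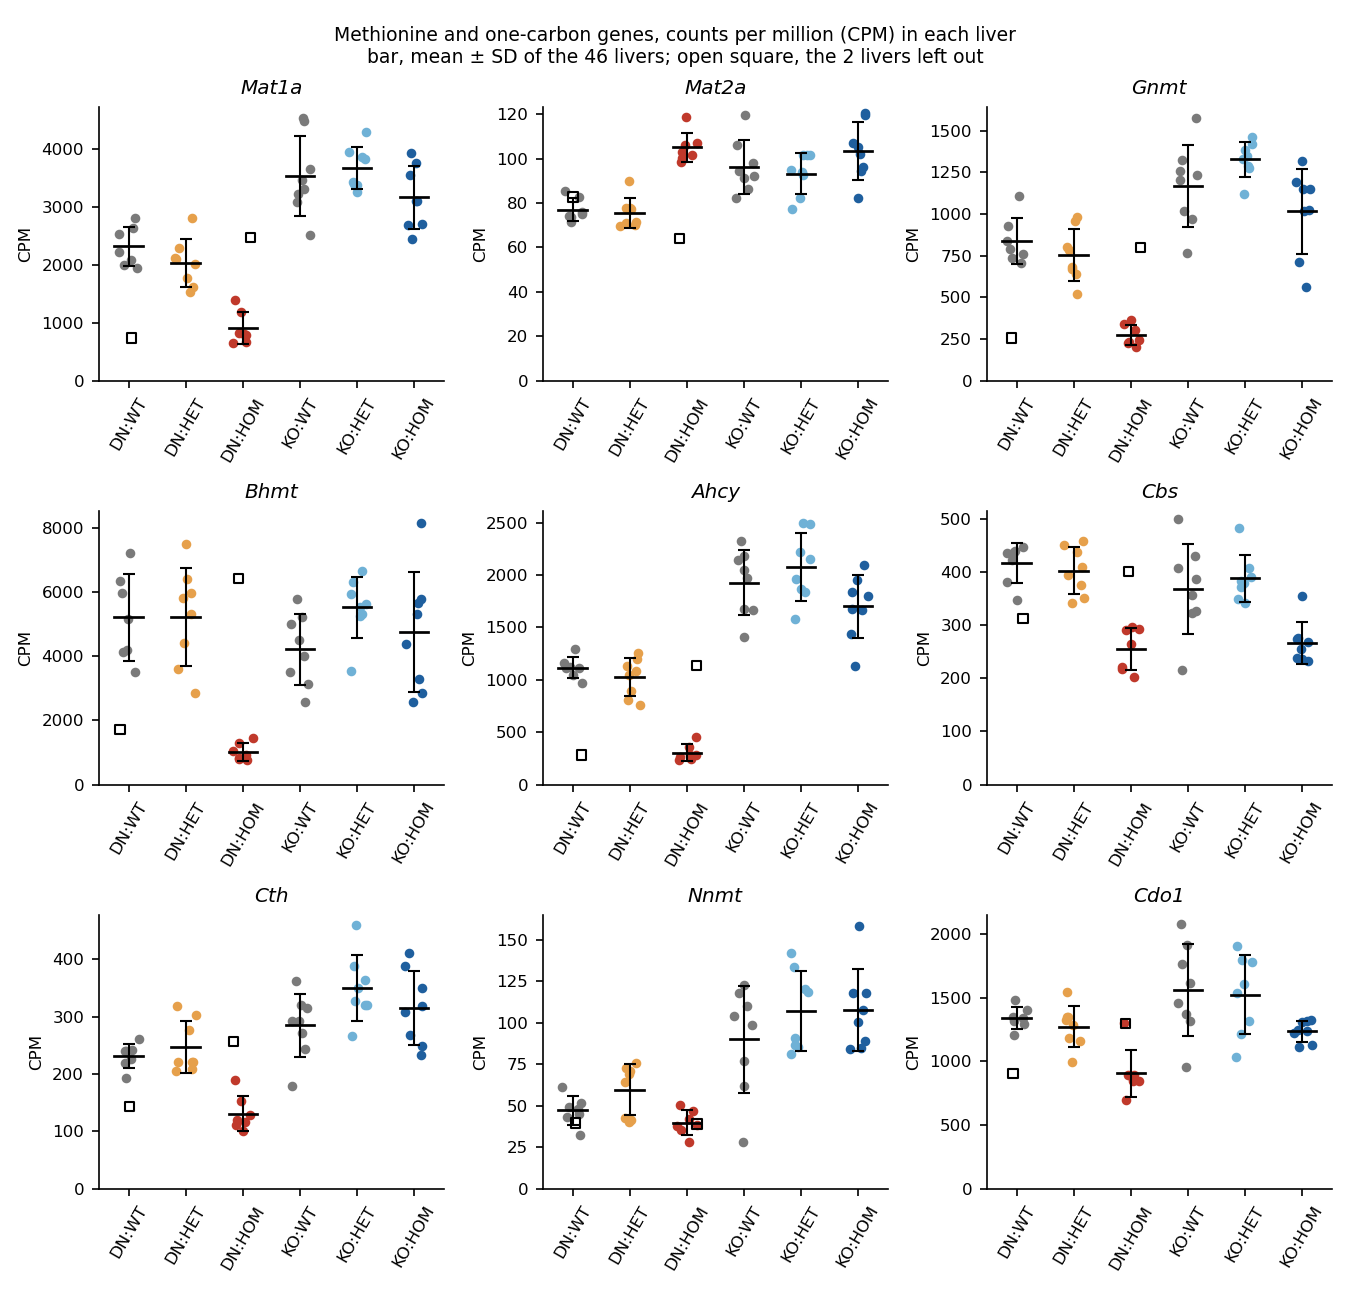
Level of each of the 9 genes in CPM (linear axes from 0) in each liver of the 6 genotype groups, with bars for the mean ± SD of the 46 livers and open squares for the 2 livers left out. The DN:HOM points lie below every DN:WT point for Mat1a, Gnmt, Bhmt, Ahcy, Cbs and Cth and above them for Mat2a, whereas the KO groups overlap in all 9 panels.

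Gnmt and Ahcy, which act after S-adenosylmethionine is made, had larger log2 fold changes than Mat1a in this comparison. Gnmt (ENSMUSG00000002769, chr17:47036587-47040107, minus strand), glycine N-methyltransferase, which disposes of excess S-adenosylmethionine, had a lowest, median and highest level of 702.7, 791.0 and 1108 CPM in DN:WT and of 202.6, 245.1 and 360.4 CPM in DN:HOM. Ahcy (ENSMUSG00000027597, chr2:154901230-154916422, minus strand), which splits S-adenosylhomocysteine, ran from 967.7 over 1117 to 1299 CPM in DN:WT and from 229.7 over 277.6 to 458.2 CPM in DN:HOM. Neither gene had overlapping ranges in the 2 groups. The log2 fold changes were -1.61 ± 0.16 for Gnmt (adjusted p = 1.04e-11) and -1.88 ± 0.14 for Ahcy (adjusted p = 4.98e-15), the lowest p of the 9 genes. In all 48 livers they were -1.18 and -1.32 (adjusted p = 6.44e-05 and 4.80e-05).

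Nnmt (ENSMUSG00000032271, chr9:48448913-48518959, minus strand), which spends S-adenosylmethionine on methylating nicotinamide, was the gene of the 9 that was not called. Its lowest, median and highest levels were 32.4, 47.9 and 61.4 CPM in DN:WT and 28.1, 38.1 and 50.4 CPM in DN:HOM. The log2 fold change was -0.24, with a 95% interval from -0.64 to 0.16 (adjusted p = 0.327, and 0.338 with all 48 livers). Of the 8 DN:HET livers, 5 lay between 64.4 and 75.9 CPM and the other 3 between 40.2 and 42.3 CPM, a spread wider than in the homozygous group.

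Bhmt (ENSMUSG00000074768, chr13:93753183-93774469, minus strand), which remethylates homocysteine with betaine from choline, had the largest log2 fold change of the 9 genes in this comparison. It ran from 3512 over 5151 to 7238 CPM in DN:WT and from 751.1 over 937.1 to 1441 CPM in DN:HOM. The ranges were far apart, and the fall was 5.11-fold (log2 fold change -2.35 ± 0.23, adjusted p = 5.42e-12). All 48 livers gave -1.50 ± 0.32 (adjusted p = 0.000319).

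The transsulfuration genes fell less. Cbs (ENSMUSG00000024039, chr17:31827868-31856646, minus strand), which joins homocysteine to serine, ran from 348.2 over 437.0 to 448.3 CPM in DN:WT and from 203.6 over 265.7 to 296.3 CPM in DN:HOM. Cth (ENSMUSG00000028179, chr3:157599868-157630739, minus strand), which releases cysteine from cystathionine, ran from 192.8 over 239.8 to 261.2 CPM and from 100.1 over 119.9 to 188.7 CPM. Both stayed clear of the wild-type range in every DN:HOM liver. The log2 fold changes were -0.69 ± 0.12 (adjusted p = 2.20e-06) and -0.81 ± 0.14 (adjusted p = 3.12e-06), and with all 48 livers -0.56 and -0.59 (adjusted p = 0.000312 and 0.00201).

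Cdo1 (ENSMUSG00000033022, chr18:46842652-46861627, minus strand), which oxidizes cysteine on the way to taurine and sulfate, had a lowest, median and highest level of 1206, 1341 and 1482 CPM in DN:WT and of 695.4, 864.8 and 1302 CPM in DN:HOM. One DN:HOM liver reached the wild-type range, so the groups overlapped. The log2 fold change was -0.55 ± 0.13 (adjusted p = 0.000259, and -0.43 with adjusted p = 0.00613 in all 48 livers). Its call, alone among the 8, was lost when libraries were scaled by size alone (-0.13, adjusted p = 0.339), a scaling that moved the median of all genes from -0.01 to 0.42. Nnmt turned to 0.18 there, and the other 7 genes held their directions and calls. In total 7 of the 9 genes had DN:HOM and DN:WT ranges that did not overlap, beside 33.7% of all genes, and none did in all 48 livers, beside 0.115%.

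The same comparison in the knockout showed 2 of the 9 genes lower and none higher, beside 19.4% of all genes called, 7.87% lower and 11.5% higher. Cbs ran from 216.5 over 372.1 to 500.8 CPM in KO:WT and from 233.5 over 262.0 to 355.8 CPM in KO:HOM. Its log2 fold change was -0.47 ± 0.11 (adjusted p = 0.00151, and 0.00706 with all 48 livers in the fit). Cdo1 ran from 956.0 over 1539 to 2083 CPM in KO:WT and from 1113 over 1245 to 1329 CPM in KO:HOM, and its log2 fold change of -0.34 ± 0.12 passed the threshold in 46 livers (adjusted p = 0.0379) but not with all 48 (adjusted p = 0.0811). Both pairs of ranges overlapped, as did those of the other 7 genes, and 2.56% of all genes did not overlap. With all 48 livers in the fit 1 of the 9 was called, beside 12.9%. Scaling by library size alone left 1 lower (Cbs) and made 1 higher (Mat2a, 0.21, adjusted p = 0.0451), with Cdo1 at -0.22 (adjusted p = 0.184), as it moved the median of all genes from -0.02 to 0.09.

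The genes with the largest changes in the knock-in had intervals around 0 in the knockout. The log2 fold change in KO:HOM against KO:WT was 0.17 for Bhmt (95% interval -0.23 to 0.56), -0.19 for Ahcy (-0.44 to 0.06), -0.21 for Gnmt (-0.49 to 0.07) and -0.17 for Mat1a (-0.43 to 0.10). The adjusted p of these 4 ran from 0.320 to 0.613. Mat2a had 0.10 (adjusted p = 0.386), Cth 0.14 (adjusted p = 0.485) and Nnmt 0.25 (adjusted p = 0.383).

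**Figure D2:**
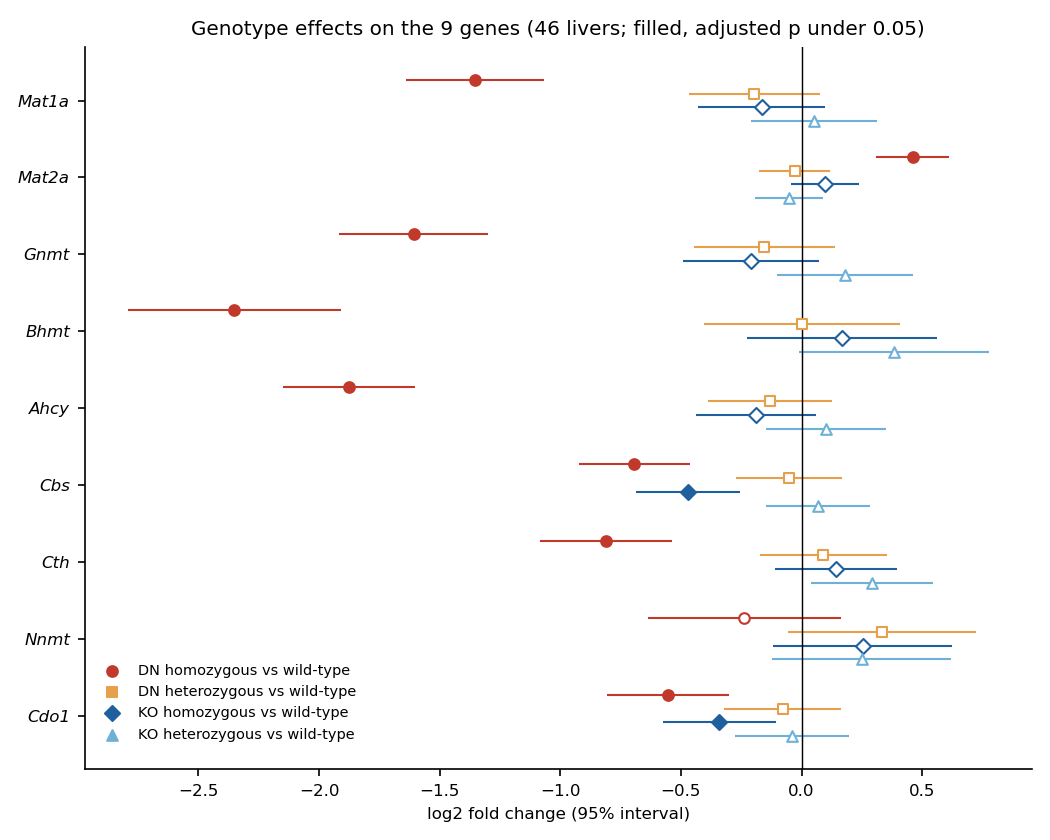
Log2 fold change of each of the 9 genes against the wild-type of the same line in 46 livers, with 95% intervals, filled where the adjusted p is below 0.05. The homozygous knock-in stands apart for Bhmt (-2.35), Ahcy (-1.88), Gnmt (-1.61) and Mat1a (-1.35), and the knockout is filled for Cbs (-0.47) and Cdo1 (-0.34).

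The difference between the homozygous effects, tested as an interaction, was called for 6 of the 9 genes, beside 34.7% of all genes. The knock-in effect was lower than the knockout effect by a log2 difference of -2.52 ± 0.30 for Bhmt (adjusted p = 8.67e-09), -1.69 ± 0.19 for Ahcy (adjusted p = 1.94e-09) and -1.40 ± 0.21 for Gnmt (adjusted p = 1.38e-06). Mat1a (-1.19 ± 0.20) and Cth (-0.95 ± 0.19) went the same way, and Mat2a the other way (0.37 ± 0.11, adjusted p = 0.00567). For Cbs the difference was -0.22 (95% interval -0.54 to 0.09), for Cdo1 -0.21 (-0.56 to 0.13) and for Nnmt -0.49 (-1.04 to 0.06), none of them called. With all 48 livers 4 were called, beside 10.5% of all genes, and Mat1a (adjusted p = 0.0630) and Mat2a (adjusted p = 0.149) were not.

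One copy of either allele left these genes without a call. In DN:HET against DN:WT none of the 9 was called (smallest adjusted p = 0.497), 0 had an unadjusted p below 0.05, and 2.30% of all genes were called. DESeq2 likewise called none, and all 48 livers gave none beside 0.250% of all genes. In KO:HET against KO:WT none was called by edgeR or DESeq2, beside 0.0191% of all genes (0.0192% with all 48 livers, again with none of the 9), and 1 gene, Cth, had an unadjusted p below 0.05. DN:HOM against DN:HET called all 9, beside 53.9% of all genes, including Nnmt at -0.57 ± 0.20 (adjusted p = 0.0139). In 7 of the 9, all but Nnmt and Cdo1, the DN:HOM and DN:HET ranges did not overlap, beside 22.1% of all genes. All 48 livers again gave 9 calls, beside 46.4%, and no gene of the 9 without overlap, beside 1.18%. KO:HOM against KO:HET called Cbs (-0.54, adjusted p = 0.00151) and no other, beside 10.6%, and the same single gene with all 48 livers (adjusted p = 0.0140), beside 4.72%.

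The wild-type groups of the lines themselves differed in 5 of the 9 genes, all lower in DN:WT, beside 12% of all genes called and 6.47% lower. The log2 difference was -0.94 ± 0.20 for Nnmt, -0.80 ± 0.13 for Ahcy, -0.62 ± 0.14 for Mat1a, -0.49 ± 0.15 for Gnmt and -0.33 ± 0.07 for Mat2a. With all 48 livers 4 of the 9 were called, beside 12.7%, and Gnmt was not (adjusted p = 0.0505). Ahcy had no overlap, beside 1.77% of all genes, at 1410 to 2329 CPM in KO:WT against a highest DN:WT level of 1299 CPM.

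The ratio of Mat1a to Mat2a was formed in each liver from reads per kilobase of merged exon (3786 bases for Mat1a and 4678 for Mat2a), so that it does not depend on library scaling. Its lowest, median and highest values were 31.2, 36.5 and 46.7 in DN:WT, 25.7, 32.5 and 49.5 in DN:HET and 7.76, 9.32 and 16.6 in DN:HOM. In the knockout line they were 33.1, 43.9 and 60.9 in KO:WT, 41.1, 48.8 and 64.8 in KO:HET and 25.1, 38.8 and 49.2 in KO:HOM. Mat1a exceeded Mat2a per kilobase in every liver, and the DN:HOM livers formed the only group whose range stood clear of its neighbour. In rising order of the mean log2 ratio the groups were DN:HOM, DN:HET, DN:WT, KO:HOM, KO:WT and KO:HET, and all neighbours above DN:HOM overlapped. In all 48 livers DN:WT came below DN:HET, and DN:HOM overlapped its neighbour as well. Positions of DN against KO groups in this order cannot be told apart from the difference between the mouse studies.

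The ratio was 3.61-fold lower in DN:HOM than in DN:WT (log2 difference -1.85 ± 0.19). Exact permutation of the livers, counting both tails, gave p = 0.000583 for this difference, and no split of 7 against 7 can give less (adjusted p = 0.00291 over 5 comparisons). The log2 difference was -0.26 ± 0.15 in KO:HOM (exact p = 0.122, adjusted 0.204), -0.18 ± 0.14 in DN:HET (exact p = 0.235, adjusted 0.294) and 0.12 ± 0.14 in KO:HET (exact p = 0.399, adjusted 0.399). The homozygous effect was lower in the knock-in than in the knockout by a log2 difference of -1.60 ± 0.24 (exact permutation of the mouse study within genotype, p = 0.00287, adjusted 0.00719). That permutation treats livers of both studies as exchangeable within a genotype, while the mean log2 ratio was 5.21 ± 0.24 in DN:WT and 5.49 ± 0.32 in KO:WT, so its p also takes in any baseline difference between the studies. With all 48 livers the knock-in difference was -1.36 ± 0.39 (exact p = 0.00715, adjusted 0.0357), and the difference between the lines was -1.10 ± 0.42 (exact p = 0.0626, adjusted 0.157). The liver labelled DN:HOM animal 12 had a ratio of 47.8 and the one labelled DN:WT animal 10 a ratio of 10.996.

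**Figure D3:**
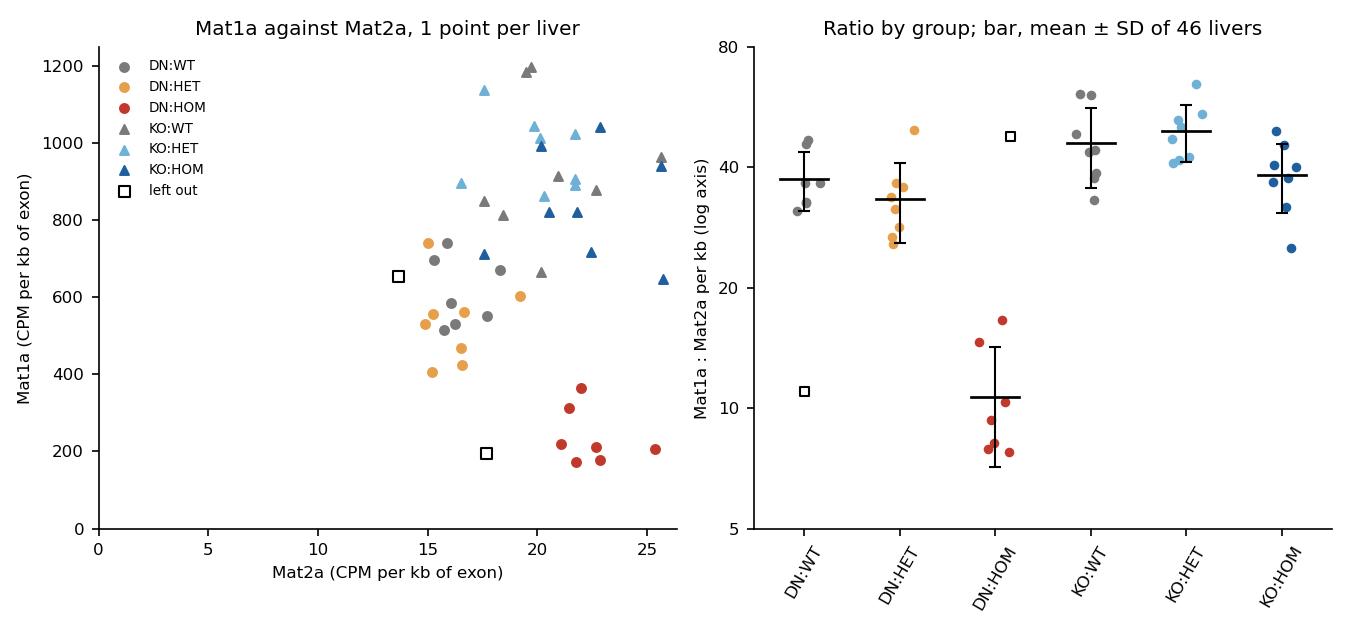
Left, Mat1a against Mat2a in CPM per kilobase of exon, 1 point per liver (circles DN, triangles KO, open squares the 2 livers left out), and right, their ratio by group on a log axis with the mean ± SD of the 46 livers. The 7 DN:HOM livers lie between 7.76 and 16.6, the DN:WT and DN:HET livers start at 25.7, and the KO livers, from another mouse study, start at 25.1.

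Per kilobase of merged exon in DN:WT, Bhmt was the highest of the 9 genes at 864.7 ± 224.8 CPM (mean ± SD, n = 7), followed by Mat1a at 613.3 ± 89.4, Gnmt at 475.6 ± 79.7, Ahcy at 382.3 ± 34.9 and Cdo1 at 247.6 ± 15.99. Cth (47.8 ± 4.49), Cbs (36.8 ± 3.31), Mat2a (16.5 ± 1.11) and Nnmt (14.1 ± 2.64) were lower. The merged exons of Cbs span 11331 bases, the most of the 9 genes, which lowers its level on this scale. In DN:HOM the mean per kilobase was 168.0 ± 44.2 CPM for Bhmt and 238.0 ± 73.1 CPM for Mat1a, so that Bhmt was no longer the higher of the pair.

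Livers differed together in several of the 9 genes. Over the 46 livers, after the mean of each group was subtracted from log2 CPM, Pearson's r was 0.73 between Gnmt and Ahcy, 0.71 between Gnmt and Cth, 0.70 between Mat1a and Ahcy and 0.69 between Gnmt and Bhmt. Mat2a had r of -0.46 with Cth, -0.41 with Cbs and -0.04 with Mat1a. Cbs paired with Cth (0.63) and not with Mat1a (-0.08). These values describe livers that share libraries, studies and scaling.

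Among 8237 other genes with a mean of at least 10 CPM, those most like Mat1a over the 46 livers were Ahcy (r = 0.97), Bnip3 (0.97), Pdk2 (0.96), Dgat2 (0.96) and Prodh (0.96), and within groups their r was 0.70, 0.83, 0.74, 0.66 and 0.63. Among those most like Mat2a were Ildr2 (0.74), Dsg2 (0.73), Abcb1a (0.72) and Mt1 (0.72). Their r within groups was lower, from 0.22 to 0.41.

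The other genes of the pathway were read from 7 lists of 67 genes in all, of which 66 passed the filter (not Aldh1l2). In DN:HOM against DN:WT 35 were lower and 13 higher, or 72.7% called and 53.0% lower, beside 59.1% and 30% of all genes. In all 48 livers 36 were lower and 9 higher. Both counts of higher genes, and so the 72.7%, include Phgdh. As described below, Phgdh passed the filter on low counts largely through DN:HOM, where it was high. The counts of lower genes do not include it. Under scaling by library size alone, with the shift of all genes given above, 22 were lower and 28 higher, beside 1738 lower and 9283 higher of all 15711 genes. In KO:HOM against KO:WT 7 were lower and 2 higher, 13.6% beside 19.4% of all genes, with all 48 livers 1 lower and 1 higher, and under library size alone 2 lower and 7 higher, beside 437 lower and 2622 higher of all genes.

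Choline and sarcosine oxidation, which feed and drain the betaine route of Bhmt, held 5 lower genes of 8 and none higher (median log2 fold change -0.81). That was 62.5% lower, beside 30% of all genes. Dmgdh, which demethylates dimethylglycine, fell by 1.98 on the log2 scale (by 1.39 in all 48 livers), from a median of 552.4 CPM in DN:WT to 135.1 CPM in DN:HOM. Sardh, which demethylates sarcosine, the product of Gnmt, fell by 1.64, and Bhmt2, a homocysteine methyltransferase next of kin to Bhmt, fell by 1.31. In the knockout none of the 8 was called, beside 19.4% of all genes.

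Of 11 other methyltransferases and partners of S-adenosylmethionine, 9 fell and none rose in DN:HOM (median -0.60). That was 81.8% lower, beside 30% of all genes. Inmt, an indolethylamine methyltransferase, ran from 769.3 over 877.8 to 1376 CPM in DN:WT and from 22.2 over 47.3 to 92.8 CPM in DN:HOM, a log2 fold change of -4.14 ± 0.23 (adjusted p = 1.91e-18), which was -2.46 with all 48 livers (adjusted p = 0.000156). It also fell in KO:HOM, to between 424.7 and 696.9 CPM from 776.9 to 1116 CPM in KO:WT (log2 fold change -0.81 ± 0.19, adjusted p = 0.00218, and 0.282 with all 48 livers in the fit). As3mt, which methylates arsenic, fell in both lines, by 0.79 in DN:HOM and by 0.70 in KO:HOM (adjusted p = 3.91e-05 and 0.000549), and kept both calls with all 48 livers. Tpmt, a thiopurine methyltransferase, fell by 0.87 in DN:HOM. Pemt, which makes phosphatidylcholine, fell by 0.55 in DN:HOM (-0.12 with adjusted p = 0.163 under library size alone) and by 0.25 in KO:HOM (adjusted p = 0.0286, and 0.0935 with all 48 livers).

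The sulfur and glutathione list was split, with 5 of 10 genes lower and 2 higher in DN:HOM. That was 70% called and 50% lower, beside 59.1% and 30% of all genes. Mpst, a mercaptopyruvate sulfurtransferase, fell by 1.71 on the log2 scale and Suox, sulfite oxidase, by 1.22, whereas Gss, glutathione synthetase, rose by 0.81 (adjusted p = 2.15e-08). Gclc, the catalytic subunit of the first glutathione enzyme, was the other that rose. Tst, a thiosulfate sulfurtransferase, was lower in KO:HOM at -0.24 (adjusted p = 0.0366, and 0.180 with all 48 livers).

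The folate cycle and glycine cleavage list had 10 lower and 5 higher of 18 tested. That was 83.3% called and 55.6% lower, beside 59.1% and 30% of all genes. Aldh1l1, the cytosolic formyltetrahydrofolate dehydrogenase, fell by 1.65 and Shmt1, cytosolic serine hydroxymethyltransferase, by 1.56. Ftcd, which moves one-carbon units from histidine breakdown, fell by 1.15. The 5 that rose were Mthfd1l, Mthfd2, Mthfd2l, Ggh and Tyms, the last of which lost its call with all 48 livers (adjusted p = 0.454). Mitochondrial members of the list stood on both sides, since Mthfd1l, Mthfd2 and Mthfd2l rose whereas Gldc (-1.40), Shmt2 (-0.93), Amt (-0.91), Slc25a32 (-0.69) and Gcsh (-0.61) fell. Mthfd1l rose from 0.607 to 2.40 CPM in DN:WT to 4.79 to 9.65 CPM in DN:HOM (log2 fold change 2.43 ± 0.55). In KO:HOM the calls were Shmt1 (-0.28, adjusted p = 0.0184) and Ftcd (-0.23, adjusted p = 0.0420), both lost with all 48 livers. These were 11.1% of the list, beside 19.4% of all genes.

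Serine synthesis held 3 genes, of which Psat1 and Phgdh were called higher in DN:HOM, both at very low levels. Of all genes 29.1% were called higher. Psat1, phosphoserine aminotransferase, ran from 0.409 over 0.766 to 1.73 CPM in DN:WT and from 2.40 over 2.85 to 3.93 CPM in DN:HOM. Phgdh, the first enzyme, averaged below 1 CPM over the 46 livers. Its highest level was 0.214 CPM in DN:WT against 0.345 to 1.67 CPM in DN:HOM. It passed the filter on low counts largely through the group where it was high, so no result is read from its call. The calls of Psat1 and Phgdh are part of the 13 higher pathway genes given above. Methionine salvage and polyamine genes moved in both directions (4 higher and 3 lower of 9). That was 77.8% called and 33.3% lower, beside 59.1% and 30% of all genes. Adi1 stood at -0.64, Odc1 at -0.44 and Sms at 0.40 (Sms adjusted p = 0.0132, and 0.0761 with all 48 livers). All 48 livers left 1 gene of this list higher and 3 lower, 44.4% called beside 48% of all genes. Odc1 was not called under scaling by library size alone (-0.01, adjusted p = 0.936).

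The list of nicotinamide and NAD handling, the wider route in which Nnmt acts, had 3 of 7 genes lower in DN:HOM, namely Aox3 (-0.85), Nmnat1 (-0.75) and Naprt (-0.57), and none higher. The called share of 42.9% was below the 59.1% of all genes, of which 30% were lower. Under scaling by library size alone Aox3 (-0.42, adjusted p = 0.0849) and Naprt (-0.14, adjusted p = 0.104) were not called and Aox1 was higher (0.31, adjusted p = 0.0268). In KO:HOM Nampt rose by 0.45 (adjusted p = 0.0372, and 0.0503 with all 48 livers) and Aox1, an aldehyde oxidase that acts on the methylated product of Nnmt, by 0.45 (adjusted p = 0.00403, and 0.00897). Naprt fell there by 0.23 (adjusted p = 0.0212, and 0.0765). The KO:HOM calls were 42.9% of the list, beside 19.4% of all genes.

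**Figure D4:**
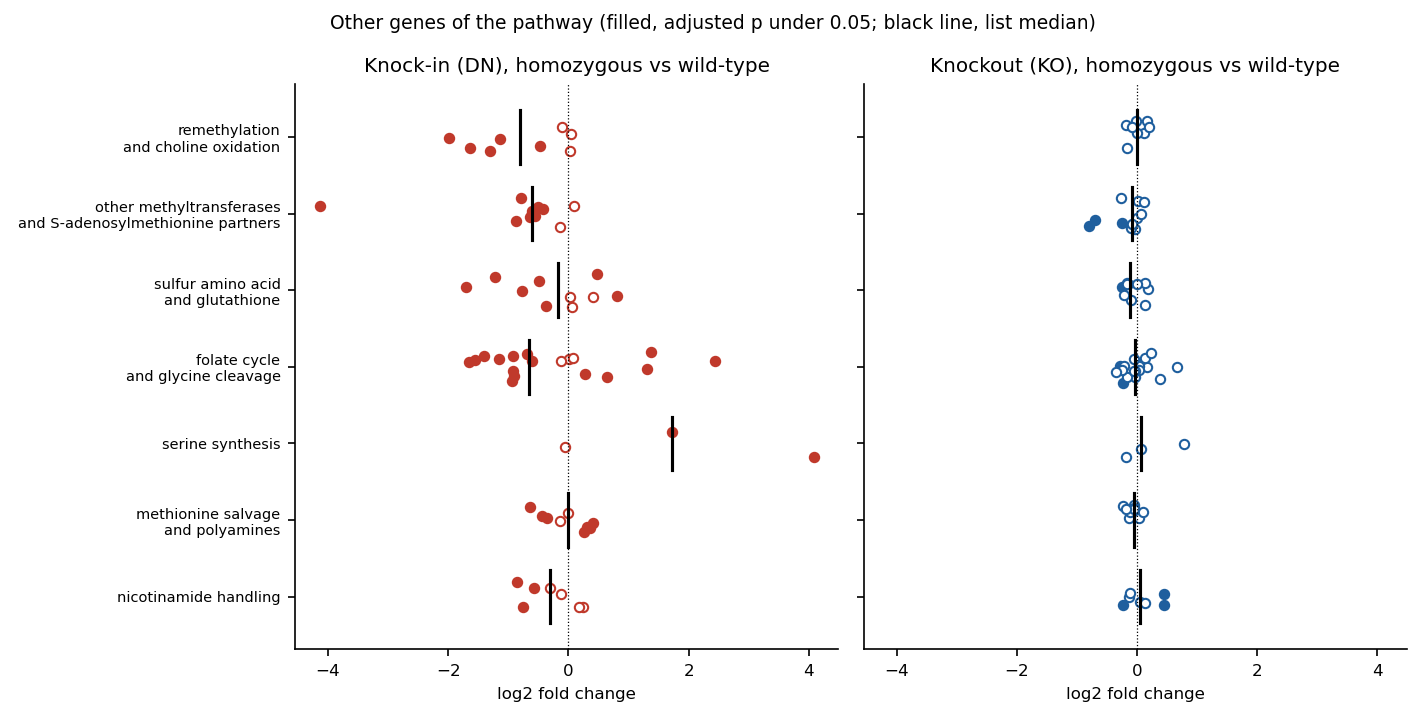
Log2 fold change of the 66 tested genes of the 7 pathway lists in homozygous against wild-type livers of each line, 1 point per gene, filled where the adjusted p is below 0.05, with a black line at each list's median. In the knock-in the lowest point is Inmt (-4.14) and the highest is Phgdh, whose DN:WT median is 0 CPM so that its fitted size is not a measured fold, and in the knockout they stay between -0.81 and 0.78.

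Marker genes of liver cell types moved with these results. All 7 hepatocyte markers were lower in DN:HOM, by log2 fold changes of -1.38 to -0.34 (median -0.94, Alb -1.14), beside 30% of all genes called lower. Their summed level was 61807 to 77876 CPM in DN:WT and 32342 to 42145 CPM in DN:HOM. Gnmt, Ahcy and Bhmt had log2 fold changes below that of every hepatocyte marker, Mat1a lay near the lowest, and Cbs, Cth and Cdo1 lay inside the range of the markers. In KO:HOM 5 of the 7 hepatocyte markers were lower (median -0.43), beside 7.87% of all genes. Their summed level was 50860 to 74746 CPM against 70649 to 96611 CPM in KO:WT.

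In DN:HOM 5 of 6 macrophage markers were higher (summed level 97.0 to 167.3 CPM in DN:WT and 786.7 to 1262 CPM in DN:HOM, led by Itgax), as were 8 of 8 stellate cell and fibroblast markers (170.0 to 264.2 and 822.8 to 1140.1 CPM, led by Lum). So were 4 of 4 cholangiocyte markers (6.54 to 10.2 and 47.0 to 62.7 CPM, led by Epcam), 5 of 5 proliferation markers (6.37 to 14.4 and 51.9 to 82.4 CPM, led by Ccnb1) and 3 of 4 T cell markers (1.07 to 1.84 and 2.56 to 3.66 CPM, led by Cd3d). Both tested neutrophil markers (2 of 4 passed the filter on low counts) were higher (4 genes summed to 0.857 to 2.94 and 18.7 to 61.7 CPM, led by S100a9), and Ly6g was at 0 in every DN:WT, DN:HET, KO:WT and KO:HET liver. The T cell markers, the tested neutrophil markers, Ccnb1 and some cholangiocyte markers averaged below 1 CPM in DN:WT and KO:WT. They can have passed that filter through the groups where they were high, so no result is read from their calls. Endothelial markers were lower in 4 of 5 (103.0 to 143.4 and 64.9 to 120.4 CPM) and B cell markers in 1 of 4 (2.85 to 6.87 and 2.32 to 4.28 CPM). Across all genes 29.1% were called higher and 30% lower in DN:HOM, and 11.5% higher and 7.87% lower in KO:HOM. In KO:HOM 4 of 6 macrophage markers (72.0 to 184.1 in KO:WT and 238.9 to 965.5 CPM), 4 of 4 T cell, 2 of 2 tested neutrophil, 5 of 8 stellate cell and fibroblast and 1 of 5 proliferation markers were higher, 1 of 5 endothelial markers was higher and 1 lower, and none of 4 cholangiocyte or 4 B cell markers was called. The liver labelled DN:WT animal 10 had a hepatocyte sum of 42947 CPM and a macrophage sum of 1272 CPM, and the one labelled DN:HOM animal 12 had 81388 and 108.1 CPM. Several of these counts depended on leaving out those livers. All 48 gave in DN:HOM 6 of 7 hepatocyte markers lower, 4 of 6 macrophage, 4 of 5 proliferation and 1 of 4 T cell markers higher and no B cell marker called. They gave in KO:HOM 2 of 7 hepatocyte markers lower, 2 of 8 stellate cell and fibroblast markers higher and no neutrophil or proliferation marker called, and the other counts were as in 46 livers. With all 48 livers 48% of all genes were called in DN:HOM and 12.9% in KO:HOM. The part of cell composition in the changes of the 9 genes was not tested.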

How the data were processed

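Raw read counts per gene, 1 deposited file per liver, were made by the authors from stranded mRNA libraries with STAR 2.5.0a on GRCm39 (release 104, per the study's methods). The stranded column was used after 4 summary lines naming no gene were dropped (24.0% to 35.0% of reads). Of the gene IDs, 98.8% were found in GENCODE vM39, which gave symbols, coordinates and exon lengths. Cth overlaps Gm43314 on its own strand with 0 shared exon bases, and Mat2a, Gnmt and Bhmt share exon bases with genes on the opposite strand, which stranded counting separates.

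The 9 genes and all lists were chosen with earlier results of these data known. edgeR 4.0.16 (R 4.3.3) fitted the 6 groups together without covariates, after filterByExpr and TMM scaling, and DESeq2 1.42.0 was an alternative. CPM used TMM over all 48 livers, and correlations used log2 CPM with a prior count of 2. The Mat1a to Mat2a ratio added 0.5 to each count and was tested by exact permutation over livers. Counting error is small at these depths. All livers of a group are separate mice, and no 2 libraries were identical in 168 pairs. In data simulated for DN:HOM against DN:WT over 15250 genes, of which 15056 were unchanged, edgeR found 83% of 1-unit and 97% of 2-unit log2 changes and made 14 false calls. The real comparison called 59.1% of genes, so the simulation cannot measure recovery or scaling error at that share. Named genes were the 9, Nr1h3, up to 3 called genes per list with the largest change and a mean of at least 1 CPM, the genes most like Mat1a and Mat2a (up to 5 each, of which 1 is not reported here), and markers that led a list or were at 0. Mat2b, Gclc, Mthfd2, Mthfd2l, Ggh, Tyms, Phgdh, Gldc, Shmt2, Amt, Slc25a32 and Gcsh are outside this rule and were named after their values were seen, to complete a count. Alternatives covered all 48 livers, the 2 shallow livers, DESeq2, upper-quartile and library-size scaling, no filter, a filter at a mean of 1 CPM, unstranded counts, only the compared groups, and an adjusted p below 0.01.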

Additional observations from a re-analysis of the deposited data

Results flagged for a closer look

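Within groups of 8 livers as labelled, 60 sets of values (9 genes and the Mat1a to Mat2a ratio in 6 groups) were searched for a highest or lowest liver that stood far from the rest by Dixon's criterion, and 16 met it, where chance gives about 1 in 20. The liver labelled DN:HOM animal 12 accounted for Mat1a (2475 CPM), Mat2a (64.0 CPM), Gnmt (797.6 CPM), Bhmt (6427 CPM), Ahcy (1137 CPM), Cbs (401.9 CPM) and the ratio (47.8). The liver labelled DN:WT animal 10 accounted for Mat1a (735.8 CPM), Ahcy (281.9 CPM) and the ratio (10.996). The others were Mat2a in DN:HET animal 8 (89.9 CPM), the ratio in DN:HET animal 1 (49.5), Bhmt in KO:HET animal 9 (3531 CPM), Cbs in KO:HET animal 2 (483.4 CPM), Cbs in KO:HOM animal 30 (355.8 CPM) and Nnmt in KO:HOM animal 8 (158.5 CPM).

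The homozygous effect differed between the knock-in and the knockout, by edgeR's interaction test in 46 livers, for Mat1a (-1.19), Mat2a (0.37), Gnmt (-1.40), Bhmt (-2.52), Ahcy (-1.69) and Cth (-0.95), and by the exact permutation test for the log2 ratio (-1.60), which takes both studies as exchangeable within a genotype. Each adjusted p was below 0.05, from 1.94e-09 for Ahcy to 0.00719 for the ratio.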

How the results depend on the processing

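No paired analysis was possible because the labels number mice, not pairs shared by the groups. Of the counts of genes called and the ratio comparisons, 84 alternative values kept their direction and their side of the threshold, or stayed within 1.5 times for a count, and 11 did not. For the knockout, 1 of the 9 genes in place of 2 was called with all 48 livers (beside 2016 of all 15621 genes), with upper-quartile scaling (2780 of 15711), with no low-count filter (2632 of 32766), with only the compared groups (2296 of 13819) and at an adjusted p below 0.01. Pathway genes called in the knockout went from 9 to 2 with all 48 livers, 5 with no filter, 5 with only the compared groups and 3 at an adjusted p below 0.01. With all 48 livers the log2 ratio difference turned to 0.0435 in DN:HET, and the difference between the lines went to -1.10 (adjusted p = 0.157). Of the values for single genes, 799 kept direction and call, 42 lost the call, 3 gained it and 11 changed sign. With library size alone the sign changed for Nnmt (0.18), Nr1h3 (0.11) and Aox1 (0.31) in DN:HOM, for Dmgdh (0.0353), Adi1 (0.0600) and Sms (0.0706) in KO:HOM, for Mat2a (0.0299) and Cbs (0.00226) in DN:HET and for the line difference of Cbs (0.0879) and Cdo1 (0.0909). With all 48 livers Ahcy turned to 0.0156 in DN:HET. The cause of these shifts was not tested beyond the settings named. Depth did not limit the 9 genes, since each had at least 430 reads in every liver, and Phgdh, Psat1 and Mthfd1l rest on few reads.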
